A study of Oryzias latipes with 12 samples.

Results

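The photoperiod response of the wild-type medaka brain was read from 6 of the 12 libraries of the study. All 6 came from wild-type Oryzias latipes, a small Japanese freshwater fish, and from dissections that held the ventral telencephalon, the hypothalamus and the pituitary. The short-day group (replicates 1, 2 and 3) was taken at hour 12 while the fish were kept under short days. The long-day group (replicates 13, 14 and 15) was taken at hour 12, 12 days after a move from short to long days. The libraries were chosen by genotype and day length alone. No gene was selected, and 18218 of 26663 genes were tested. The other 6 libraries came from a pd1 knockout (called phod1 in the title of the study), 3 under short days (replicates 1, 3 and 4) and 3 after the same move (replicates 13, 14 and 16). They enter here through the shared estimate of spread and for values side by side. The sources used here do not give strain, sex, age, light hours or the number of fish per library. No short-day wild-type group was taken 12 days later, so day length cannot be told apart from elapsed time or from the move.

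Medaka breed under long days. In vertebrates, gonadotropin-releasing hormone from the hypothalamus acts on pituitary gonadotropes, which secrete follicle-stimulating hormone (FSH) and luteinizing hormone (LH). Each hormone joins its own β subunit to a common α subunit, and in teleost fish the β subunits are made in largely separate cells. The hormones act on the gonads, whose sex steroids act back on brain and pituitary, and the fish brain itself makes oestrogen through an aromatase in radial glia. In birds and mammals, day length reaches this axis through thyrotropin of the pars tuberalis and the deiodinase genes of the hypothalamus.

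Values are TPM, a transcript level scaled for transcript length and for the total of the library. A log2 difference is the long-day minus the short-day mean of log2(TPM + 1), fitted with limma. Genes are said to rise or fall where the Benjamini-Hochberg adjusted p over all 18218 tested genes was under 0.05. Others are given as values, and a gene counts as higher or lower by the sign of its log2 difference. Read depth is unknown from TPM. Libraries of 1 wild-type group correlated at r = 0.972 to 0.980 across genes, and libraries of different groups at 0.970 to 0.979, across genes that are not independent replicates. The labels do not say that libraries came from separate fish, so a p-value measures the spread between these samples. In the 6 wild-type libraries the rod opsin gene rho was listed at 0, the photoreceptor gene pde6g stood at 0 to 1.98 TPM and the serotonin synthesis gene tph1 at 17.3 to 26.1 TPM. Knockout short-day replicates 3 and 4 stood apart in these eye and pineal markers, with pde6g at 75.2 and 8.7 TPM and tph1 at 194 and 49.9 TPM. The main counts of calls that use them are also given without each in turn. Knockout values of single genes, and genotype tests without short-day wild-type replicate 3, are given only with both in place. Short-day replicate 3 stood apart in antiviral genes, with a summed level of 639 TPM over 13 of them against 101 to 109 TPM in the other wild-type libraries. Every call below was therefore checked without that library.

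Long days went with a few large rises, in genes of reproduction and a clotting factor gene, and with a larger number of falls, most of them smaller. The falls included 2 of 17 tested haem genes and the retinoic acid-degrading enzyme gene cyp26b1. Of the tested genes 35 were called, or 0.192%, with 12 that rose (0.0659%) and 23 that fell (0.126%). The median log2 difference was 1.11 over the genes that rose and -0.68 over those that fell, and 7 rises but 5 falls reached 1 on the log2 scale. Of the 35 genes, 24 have a symbol, and the other 11 (3 that rose and 8 that fell) have a LOC number. In all 35 the groups did not overlap, the lowest library of the higher group lying above the highest of the lower, as in 4.95% of tested genes with long days higher and 12.1% with long days lower. Over all tested genes 61.2% were lower under long days and the median log2 difference was -0.05. With median-ratio scaling that median was 0.00138 and the split of calls turned to 13 that rose and 12 that fell. Of the 12 rises 11 stayed called under that scaling, and of the 23 falls 12 did. A fit to the 6 wild-type libraries alone, which has fewer residual degrees of freedom, called lhb and no other gene.

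**Figure D1:**
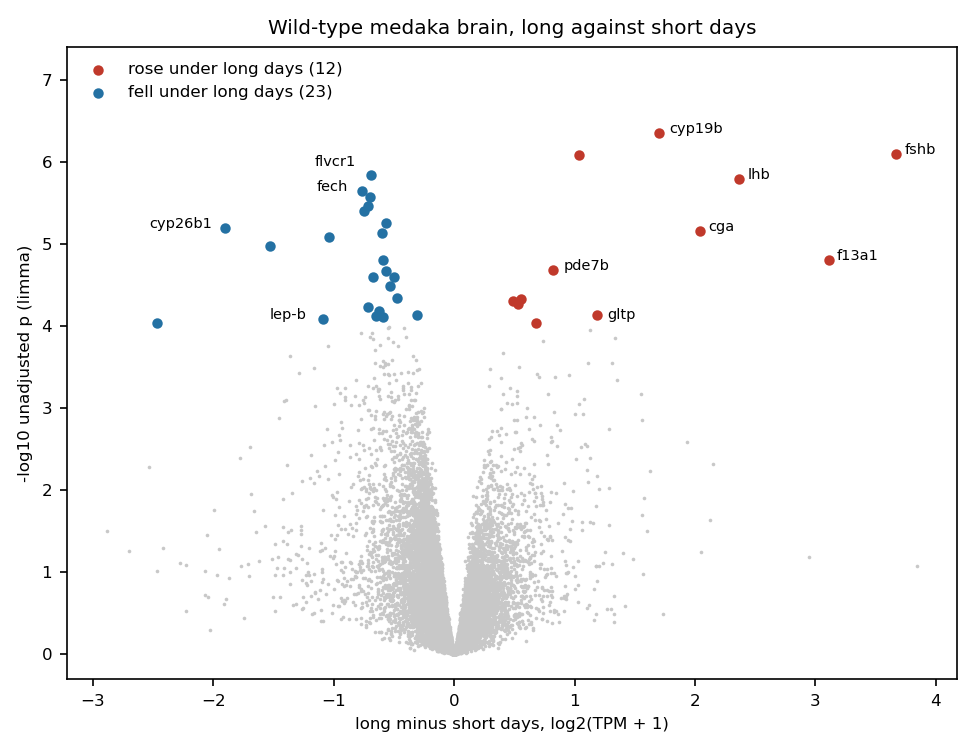
Each point is 1 of 18218 tested genes, with the log2 difference (long minus short days, log2(TPM + 1)) on the horizontal axis and -log10 of the unadjusted limma p on the vertical axis. The 12 genes that rose are red and reach 3.67 for fshb, and the 23 genes that fell are blue and mostly lie between -1 and 0.

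All 3 gonadotropin subunit genes rose. The FSH β gene fshb (gene 105356452) stood at 122, 115 and 31.4 TPM in short-day replicates 1, 2 and 3 and at 983, 897 and 1083 TPM in long-day replicates 13, 14 and 15. All long-day libraries lay above all short-day libraries, and replicate 3 was the lowest of the short-day group. Its log2 difference was 3.67 (SE 0.38, adjusted p = 0.00497). Without short-day replicate 3 it was 3.04 (SE 0.10, adjusted p = 2.99e-07, range 2.99e-07 to 0.115 over the alternatives). The LH β gene lhb (gene 100125483) stood at 35.8, 56.3 and 48 TPM under short days and at 212, 244 and 269 TPM under long days, without overlap. Its log2 difference was 2.36 (SE 0.26, adjusted p = 0.00588), or 2.40 without short-day replicate 3. The common α subunit gene cga (gene 100144350) stood at 269.8, 440.2 and 353 TPM and at 1256, 1351 and 1732 TPM, again without overlap, with a log2 difference of 2.04 (SE 0.26, adjusted p = 0.0103), or 2.05 without replicate 3. The summed level of the 3 subunit genes was 427 to 612 TPM under short days and 2451 to 3083 TPM under long days. In these bulk samples more cells of a type and more RNA per cell cannot be told apart.

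Other pituitary genes did not share this pattern in their values. The hormone precursor gene pomc, expressed in corticotropes, melanotropes and hypothalamic neurons, stood at 4534, 5987 and 3048 TPM under short days and at 7002, 2689 and 5190.1 TPM under long days, so its groups overlapped widely (log2 difference 0.08, adjusted p = 0.981). Of 12 tested pituitary lineage factors none was called, 10 were lower and 2 higher under long days, and their median log2 difference was -0.22, or -0.18 without short-day replicate 3. Their summed level was 328 to 385 TPM under short days and 268 to 300.2 TPM under long days. Of that sum egr1 alone made up means of 174 and 128 TPM. It is counted again among the immediate early genes below, so the sum is no separate measure of pituitary content. The homeodomain factor isl1 stood at 65.2, 70.0 and 66.1 TPM and at 56.9, 52.5 and 58.7 TPM (adjusted p = 0.124). The growth-related factor egr1, which gonadotropes of mammals use to express the LH β gene, stood at 159, 158 and 206 TPM and 119.9, 127 and 136 TPM (adjusted p = 0.419). Steroidogenic factor nr5a1, a regulator of gonadotrope genes, had overlapping groups at 4.16, 3.19 and 3.33 TPM and 2.48, 3.26 and 3.15 TPM (adjusted p = 0.712). Most of these factors were thus lower where the subunit genes were higher, and the part of pituitary content in the rises was not tested. Growth hormone and thyrotropin β genes were not analysed here, since no symbol matched, and prolactin was below the filter.

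**Figure D2:**
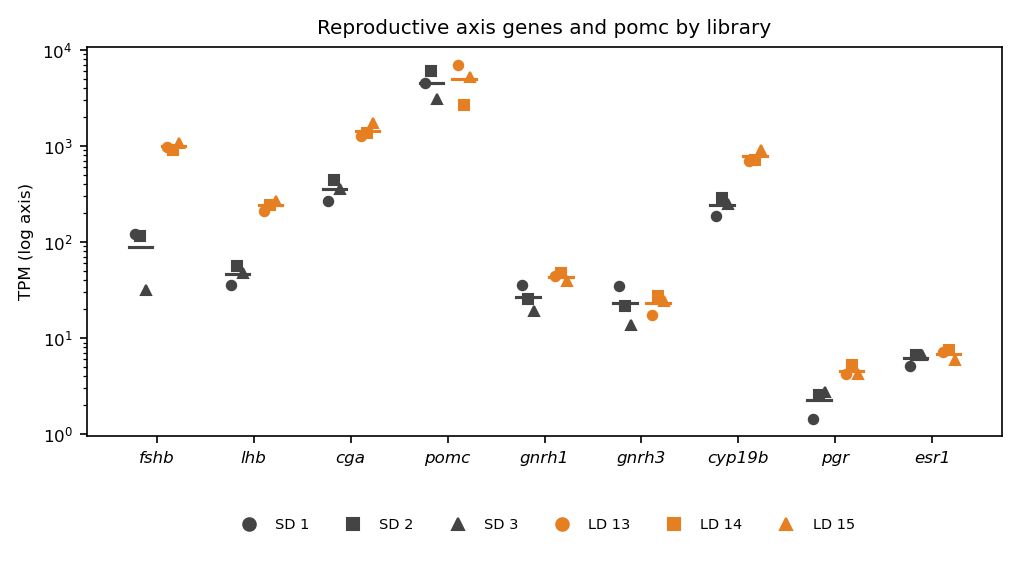
TPM on a log axis for genes of the reproductive axis and for pomc, with 1 point per wild-type library (grey, short days; orange, long days; symbols mark the replicate) and a line at each group mean. For fshb, lhb, cga and cyp19b the 3 long-day points lie above the 3 short-day points, and for pomc the groups overlap.

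Upstream of the pituitary, hypothalamic genes gave no call. Of 6 tested genes for hypothalamic control of reproduction 5 had a positive log2 difference and 4 a higher mean TPM under long days. The median log2 difference was 0.10, or 0.14 without short-day replicate 3. In gnrh1, a gene for gonadotropin-releasing hormone, levels were 35.9, 25.2 and 19.3 TPM under short days and 44.1, 47.2 and 38.9 TPM under long days. Its groups did not overlap, the log2 difference was 0.71 (SE 0.17, adjusted p = 0.138), and it was 0.51 without replicate 3. Its paralog gnrh3 overlapped, at 34.9, 21.5 and 13.6 TPM and 17.4, 27.4 and 24.1 TPM, and its log2 difference turned from 0.05 to -0.27 without that library. The neuropeptide genes tac1, gal and tac3 overlapped as well, with log2 differences of 0.16, 0.14 and -0.33. Short-day replicate 3 held tac3 at 59.4 TPM, above the other 5 libraries, and without it the difference was 0.000384. Neither kisspeptin gene matched a symbol, so none is given here.

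Among sex steroid genes the brain aromatase cyp19b (gene 100125815), which turns androgens into oestrogens, rose. Its levels were 187, 284 and 251 TPM under short days and 701, 722 and 910.3 TPM under long days, without overlap. The log2 difference was 1.70 (SE 0.17, adjusted p = 0.00497), or 1.74 without short-day replicate 3. The other 10 tested genes of steroid synthesis and reception were not called. The progesterone receptor gene pgr came nearest, at 1.45, 2.56 and 2.73 TPM and 4.21, 5.3 and 4.26 TPM without overlap (log2 difference 0.80, adjusted p = 0.152). The oestrogen receptor gene esr1 overlapped, at 5.16, 6.73 and 6.6 TPM and 7.13, 7.45 and 5.9 TPM (adjusted p = 0.8). The androgen-handling enzyme gene hsd17b3 was slightly lower without overlap, at 28, 26.9 and 26 TPM against 22.7, 23.8 and 23.1 TPM. So was srd5a1, at 35, 37.1 and 33.6 TPM against 29.4, 29.4 and 27.6 TPM, as were 12.1% of all tested genes. The enzyme genes srd5a3 and cyp17a2 overlapped, with log2 differences of 0.06 and -0.14. Over all 11 genes of the list 5 were higher and 6 lower, with a median of -0.04 that turned to 0.01 with median-ratio scaling.

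Radial glia, the cells that carry this aromatase in fish, were followed through 11 tested markers, cyp19b included. Of these 9 were higher under long days, cyp19b was called, and the median log2 difference was 0.03, or 0.05 without short-day replicate 3. The calcium-binding protein gene s100b stood at 946, 914 and 909.9 TPM and 1067, 1203 and 1201 TPM, and the fatty acid-binding protein gene fabp7 at 1841, 1858 and 1684 TPM and 2139, 2057 and 2215 TPM. Both had groups that did not overlap, and neither was called (adjusted p = 0.219 and 0.357). The summed level of the list was 5942 to 6085 TPM under short days and 6900.0 to 7321 TPM under long days. That sum includes cyp19b itself, at means of 240 and 778 TPM, so it is no separate measure of these cells. The part of radial glia content in the rise of cyp19b was not tested. The Notch target hes1 was lower, at 59.2, 66.8 and 68.8 TPM and 54.9, 39.5 and 58.1 TPM (adjusted p = 0.313).

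The second largest rise, after that of fshb, was that of f13a1 (gene 101168749), whose product in mammals is the catalytic subunit of the factor that cross-links fibrin. It stood at 12.8, 5.15 and 3.37 TPM under short days and at 62.4, 56.5 and 64.4 TPM under long days. The long-day libraries were tightly grouped, while short-day replicate 1 lay well above the other short-day libraries. Its log2 difference was 3.11 (SE 0.44, adjusted p = 0.0169). Without short-day replicate 3 it was 2.75 and the call was lost (adjusted p = 0.0533, range 0.00711 to 0.108 over the alternatives). Of 7 tested genes of clotting and extravascular matrix f13a1 alone was called. Tissue factor gene f3 stood at 25.3, 20.9 and 21.4 TPM and 18.7, 18.8 and 18.1 TPM, lower under long days (adjusted p = 0.405), and vwf, a marker of endothelium and platelets, at 4.39, 4.54 and 5.14 TPM and 2.93, 4.09 and 4.39 TPM (adjusted p = 0.585). Blood vessel markers were higher in 7 of 10 with none called, at a summed level of 180.1 to 189 TPM under short days and 181 to 199 TPM under long days. Microglia and leukocyte markers were higher in 3 of 4 with none called, at 312 to 383 TPM and 317 to 434 TPM.

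Smaller rises were those of single genes of lipid transfer, cyclic nucleotides, protein turnover and DNA repair. The glycolipid transfer gene gltp (gene 101169614) was low throughout, at 0.61, 0.57 and 1.17 TPM under short days and 3.65, 2.6 and 2.86 TPM under long days (log2 difference 1.19, SE 0.20, adjusted p = 0.0441). It was called without short-day replicate 3, where the difference was 1.34, and lost its call without each of the other 5 libraries. The phosphodiesterase gene pde7b (gene 101164940), whose product breaks down cAMP, was even within groups, at 2.4, 2.51 and 2.75 TPM and 5.19, 5.2 and 5.4 TPM (log2 difference 0.82, SE 0.12, adjusted p = 0.0205). Its relative pde7a stood at 11.6, 13.7 and 14.2 TPM and 14.7, 18.3 and 14.7 TPM, not called (adjusted p = 0.419).

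The F-box gene fbxo25 (gene 101158321), an adaptor for ubiquitin ligases, stood at 21.7, 21.7 and 23.7 TPM under short days and 36.2, 30.5 and 33.7 TPM under long days (log2 difference 0.56, SE 0.09, adjusted p = 0.0354). The groups were far apart relative to their spread, although of 33 tested F-box genes 16 were higher and 17 lower and no other was called. The RNase H2 subunit gene rnaseh2b (gene 101165357), whose enzyme removes ribonucleotides from DNA, stood at 21.2, 23.8 and 22.4 TPM and 32.3, 32.9 and 33.5 TPM (log2 difference 0.53, SE 0.08, adjusted p = 0.0373). Without short-day replicate 3 the log2 differences were 0.86 for pde7b, 0.60 for fbxo25 and 0.53 for rnaseh2b, and none of the 3 was called. Genes without a symbol that rose were LOC101174341, LOC101161642 and LOC101175377. LOC101174341 stood at 17, 15.6 and 14.7 TPM and 30.7, 35.6 and 34 TPM, with a log2 difference of 1.04 (adjusted p = 0.00497) that was 0.99 without replicate 3. LOC101161642 and LOC101175377 had log2 differences of 0.68 and 0.49 and were not called without that library.

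Of the 3 falls that kept their calls with each wild-type library left out in turn, 2 were of haem genes. Ferrochelatase, encoded by fech (gene 101161911), places iron into protoporphyrin in the last step of haem synthesis, and flvcr1 (gene 101166600) encodes a membrane transporter described in mammals for haem export. Levels of fech were 79.1, 82.8 and 80.8 TPM under short days and 48.2, 50.5 and 43.3 TPM under long days, and the groups were far apart relative to their spread. The log2 difference was -0.76 (SE 0.09, adjusted p = 0.0069) and -0.76 without short-day replicate 3. For flvcr1 the levels were 67.6, 60.2 and 57.8 TPM and 37.7, 39.1 and 36.9 TPM, again without overlap, with a log2 difference of -0.69 (SE 0.08, adjusted p = 0.00588), or -0.74 without replicate 3. Both calls held with each of the 6 libraries left out in turn.

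The remaining 15 tested haem genes were not called. Over the 17 tested, 12 were lower and 5 higher, with a median log2 difference of -0.21, or -0.20 without short-day replicate 3. Among all tested genes 61.2% were lower, with a median of -0.05, and 12.1% were lower without overlap. The rate-limiting synthase of non-erythroid cells, alas1, stood at 98.7, 91.7 and 95.2 TPM and 84.3, 82.6 and 78 TPM (adjusted p = 0.242), and hmbs, of the third step, at 15.6, 13.6 and 15.3 TPM and 11.1, 13.1 and 12.1 TPM (adjusted p = 0.288). Both were lower without overlap, whereas cpox, which acts upstream of fech, was higher at 43.4, 39 and 39.7 TPM against 52.1, 49.4 and 44 TPM (adjusted p = 0.292). Of the biliverdin reductase genes, of haem breakdown, blvra was lower at 78.9, 81.2 and 99.4 TPM against 69.4, 68.5 and 66.4 TPM (adjusted p = 0.498). The other, blvrb, overlapped at 2.72, 25.8 and 33.5 TPM and 20.5, 17.8 and 24.5 TPM, with a log2 difference of 0.53 (adjusted p = 0.809), or 1.12 without short-day replicate 3.

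Red blood cell content was read beside these falls. The erythrocyte list held 2 tested markers, both lower and neither called, with a summed level of 151 to 163 TPM under short days and 135 to 152 TPM under long days. Of them rhag, an ammonium channel of the red cell membrane, stood at 30.4, 36.1 and 34.5 TPM and 23.5, 21.3 and 27.4 TPM (adjusted p = 0.222). The other, epb41, made up most of that sum, at means of 125 and 121 TPM. Its groups overlapped, with a log2 difference of -0.04. The abundant globin genes, looked up after their values were seen, differed the other way in their means and overlapped. The most abundant (gb, gene 101170712) stood at 3046, 2988 and 1721 TPM under short days and 4969.7, 2345 and 8596 TPM under long days (adjusted p = 0.443), lowest in short-day replicate 3 and highest in long-day replicate 15. The globin genes with low TPM (gb, genes 101154779 and 101174505) were instead lower under long days without overlap. Their log2 differences were -2.88 and -2.42, and neither was called (adjusted p = 0.377 and 0.43). The part of blood in the fall of fech and flvcr1 was not tested.

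Some genes of mitochondria were among the falls. The J-domain gene dnajc15 (gene 101156448), whose product in mammals sits at the import motor of the inner membrane, stood at 83.2, 62.5 and 76.4 TPM under short days and 44.9, 43.6 and 41.7 TPM under long days (log2 difference -0.75, SE 0.09, adjusted p = 0.00812). Another J-domain gene, dnajc25 (gene 101163593), was listed with it as a co-chaperone, and no place in mitochondria is claimed for its product. Its levels were 32.4, 30.4 and 33.1 TPM and 19, 20.1 and 18.3 TPM (log2 difference -0.71, SE 0.09, adjusted p = 0.00782). Without short-day replicate 3 the differences were -0.72 and -0.69 and both genes stayed called. The inner membrane protease gene yme1l1 (gene 101168581) stood at 45.1, 43.5 and 44.8 TPM and 31.5, 31.2 and 26.6 TPM, with long-day replicate 15 the lowest (log2 difference -0.57, SE 0.08, adjusted p = 0.0205). A gene for a mitochondrial potassium channel in mammals, ccdc51 (gene 101174163), stood at 21.8, 24.3 and 21.2 TPM and 12.3, 15.1 and 13.7 TPM (log2 difference -0.68, SE 0.10, adjusted p = 0.022). Both had no overlap, and both lost their calls without replicate 3, where the differences were -0.56 and -0.71.

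In the list of mitochondrial import and co-chaperones 21 of 27 tested members were lower under long days, 14 of them without overlap, against 12.1% of all tested genes. The median log2 difference was -0.18, or -0.18 without short-day replicate 3, beside -0.05 over all tested genes. The members called were dnajc15 and dnajc25, which also count among the 14 without overlap. This list was chosen with earlier results of these data known, so its counts are a description only. The matrix chaperone gene hspa9, which pulls proteins through the inner membrane, stood at 157, 145 and 160.0 TPM and 109, 128 and 109 TPM (log2 difference -0.42, adjusted p = 0.0513). The outer membrane pore gene tomm40 stood at 68.4, 65.8 and 62.3 TPM and 45.9, 55.7 and 53.6 TPM (adjusted p = 0.129). Both lay lower without overlap and were not called. Of 75 mitochondrial ribosomal protein genes 47 were lower and 28 higher, with a median of -0.04 that turned to 0.01 with median-ratio scaling. Of 49 oxidative phosphorylation genes 33 were higher, with a median of 0.04, and none of either list was called.

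Mitochondrial enzymes of amino acid breakdown fell in 2 cases. The threonine-degrading enzyme gene gcat (gene 101164655) stood at 31.3, 29.3 and 26.8 TPM under short days and 19.5, 18.8 and 18.6 TPM under long days (log2 difference -0.59, SE 0.08, adjusted p = 0.0169). Arginase 2, which turns arginine into ornithine and urea and is encoded by arg2 (gene 101164856), stood at 105, 87.3 and 87.6 TPM and 52.9, 65.4 and 51.6 TPM (log2 difference -0.71, SE 0.12, adjusted p = 0.04). Neither gene had overlapping groups, and without short-day replicate 3 the differences were -0.65, still called, and -0.75, not called. Over 23 tested genes of the list 15 were lower, with a median of -0.11, or -0.08 without replicate 3. Over all tested genes 61.2% were lower, with a median of -0.05. The ornithine aminotransferase gene oat stood at 206, 193 and 198 TPM and 154, 175 and 151 TPM (adjusted p = 0.0822). Larger in size, gatm, the first enzyme of creatine synthesis from arginine, stood at 30.6, 22.1 and 19.1 TPM and 4.75, 11.2 and 9.28 TPM (log2 difference -1.45, adjusted p = 0.129). Both were lower without overlap and were not called.

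The largest fall of a gene with a symbol was that of cyp26b1 (gene 101159703), an enzyme that degrades retinoic acid. It stood at 8.81, 6.53 and 9.36 TPM under short days and 1.42, 1.52 and 1.38 TPM under long days, so that the lowest short-day library lay well above the highest long-day one. The log2 difference was -1.91 (SE 0.24, adjusted p = 0.0103), or -1.82 without short-day replicate 3, where it stayed called. The other 8 tested genes of retinoic acid handling had overlapping groups. Among these were the paralog cyp26a1 at 2.61, 1.36 and 2.23 TPM and 1.18, 1.61 and 1.55 TPM and the retinoic acid-making enzyme gene aldh1a2 at 42.9, 35.7 and 31.2 TPM and 39.9, 27.9 and 47.1 TPM. The list's median was -0.07 with and without replicate 3.

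A leptin gene, lep-b (gene 100301595), fell at low levels, from 3.41, 2.84 and 3.6 TPM to 0.81, 1.11 and 1.13 TPM (log2 difference -1.09, SE 0.18, adjusted p = 0.0451). Leptin is known in mammals as the fat-derived signal of energy stores, and its role in fish is less settled. Its groups did not overlap, but the call was lost without any 1 of the 6 libraries, and the difference was -1.03 without short-day replicate 3. The leptin receptor gene lepr overlapped, at 1.45, 3.83 and 7.46 TPM and 4.09, 2.1 and 4.33 TPM, as did npy, a neuropeptide that promotes feeding, at 707, 624 and 753 TPM and 772, 691 and 618 TPM. Of 8 tested genes of this list 7 were lower, with a median of -0.18, and 5 were lower without replicate 3, with a median of -0.16.

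Lipid genes contributed falls of cptp and gpat3. The ceramide-1-phosphate transfer gene cptp (gene 101158358), from the same protein family as gltp, stood at 31.7, 32.7 and 36.9 TPM under short days and 20.9, 22.3 and 20.3 TPM under long days (log2 difference -0.65, SE 0.11, adjusted p = 0.0441). The glycerol-phosphate acyltransferase gene gpat3 (gene 101157182), of the first step of glycerolipid synthesis, stood at 50.7, 44.8 and 45 TPM and 32.8, 34.3 and 31.5 TPM (log2 difference -0.50, SE 0.07, adjusted p = 0.022). Neither had overlapping groups, and without short-day replicate 3 the differences were -0.58 and -0.52, neither called. Of 21 tested genes of glycolipid and ceramide handling 14 were lower and 7 higher, with a median of -0.03 that turned to 0.02 with median-ratio scaling.

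The remaining falls with a symbol were modest in size. The RING-finger gene lonrf2 (gene 101158240) stood at 45.4, 48.7 and 44.4 TPM and 35.1, 32.1 and 31.7 TPM (log2 difference -0.47, SE 0.07, adjusted p = 0.0354). For rundc1 (gene 101167539) the levels were 27.1, 26.3 and 25.5 TPM and 18.5, 16.4 and 18.7 TPM (log2 difference -0.53, SE 0.08, adjusted p = 0.0272). The splicing factor gene srsf6 (gene 101162527), at 82.2, 87.7 and 83.7 TPM and 68.3, 68.6 and 67 TPM, had the smallest difference of the 35 (log2 difference -0.31, SE 0.05, adjusted p = 0.0441). Libraries within each group were close together for all 3, and the calls were lost without any 1 of the 6 libraries, with log2 differences of -0.50, -0.55 and -0.32 without short-day replicate 3.

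Of the 8 genes without a symbol that fell, LOC101165212 was listed at 0 in all 3 long-day libraries and stood at 2.66, 6.47 and 5.14 TPM under short days (adjusted p = 0.0476). Its call was lost without any 1 of the 6 libraries (adjusted p = 0.146 without short-day replicate 3). LOC101164777 stood at 5.63, 6.73 and 9.72 TPM and 1.49, 1.62 and 2.48 TPM (log2 difference -1.53, adjusted p = 0.0128). LOC101165110 stood at 45.4, 39.1 and 34.6 TPM and 17.9, 20.8 and 17.4 TPM (log2 difference -1.04, adjusted p = 0.0108). The groups of each were separate, and without short-day replicate 3 the differences of LOC101164777 and LOC101165110 were -1.34 and -1.14, both still called. LOC101164398, at 82.1, 84.4 and 84.8 TPM and 54.1, 55.7 and 44.4 TPM, kept its call with each library left out in turn (log2 difference -0.70, or -0.69 without short-day replicate 3). The log2 differences of LOC101175077, LOC101154857, LOC101161615 and LOC101166083 were -0.60, -0.56, -0.59 and -0.63, and the last 2 of these lost their calls without replicate 3.

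**Figure D3:**
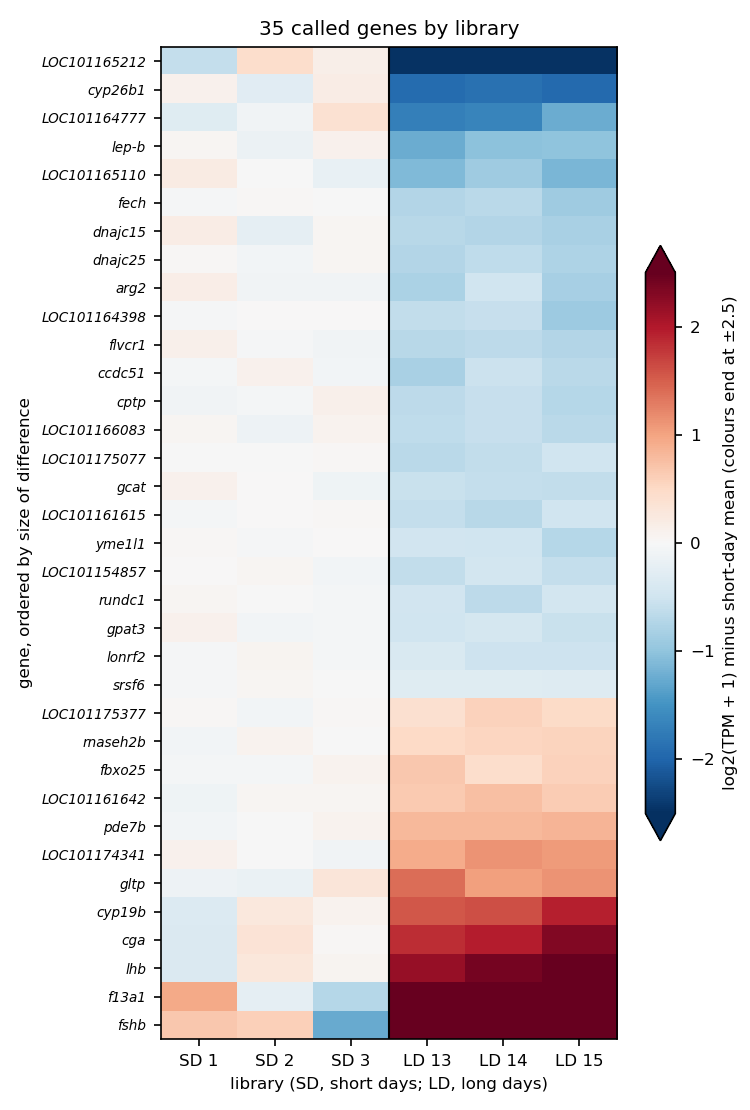
Rows are the 35 called genes and columns the 6 wild-type libraries (SD, short days; LD, long days), with colour for log2(TPM + 1) minus the short-day mean of the gene, ending at ±2.5. The 23 genes that fell are blue and the 12 that rose are red in all 3 long-day libraries, and within the short-day group the strongest departures are those of f13a1 and fshb.

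The calls differed in how much they rested on single libraries. With each of the 6 libraries left out in turn, 7 genes kept their calls throughout, fshb, lhb, cyp19b, fech, flvcr1, LOC101164398 and LOC101174341, with adjusted p up to 0.0381. The calls of dnajc15 and dnajc25 were lost without long-day replicate 15 (adjusted p = 0.0557 and 0.0535). For cga and cyp26b1 the call depended on 3 libraries, short-day replicate 1 and long-day replicates 13 and 15, with adjusted p up to 0.0673 and 0.0658 when 1 of them was left out. Of the others LOC101164777 kept its call in 4 of the 6 fits, LOC101175077 in 3, gcat, LOC101154857 and LOC101165110 in 2, 7 genes in 1 and 12 genes in none. The f13a1 call was 1 of the 7, kept without short-day replicate 1. All 35 genes kept their direction in each fit that tested them.

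Leaving out short-day replicate 3 gave 23 calls, or 0.126% of tested genes, with 8 that rose and 15 that fell. Of the 35 genes 17 stayed called, and 19 had a larger absolute log2 difference without that library than with it. The direction of all 35 was kept. Among genes with a symbol, fshb, lhb, cga, cyp19b and gltp stayed called as rises and fech, flvcr1, cyp26b1, dnajc15, dnajc25 and gcat as falls.

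A further 6 genes were called only without that library. The phosphatase-domain gene ptpdc1 (gene 101157363) stood at 32.7, 33 and 16.2 TPM under short days and 13.1, 15.9 and 15.1 TPM under long days. Its replicate 3 lay close to the long-day libraries, and without it the log2 difference went from -0.79 to -1.11 (adjusted p = 0.165 with and 0.00129 without, range 0.00129 to 0.382 over the alternatives). The vascular growth factor gene vegfa (gene 100125510) stood at 26, 24.8 and 21.2 TPM and 15.8, 15.8 and 16.4 TPM, with log2 differences of -0.55 with and -0.63 without the library (adjusted p = 0.0513 and 0.0471, range 0.0158 to 0.199 over the alternatives). Replicate 3 was the lowest short-day library for vegfa too. The mitochondrial aminotransferase gene agxt2 stood at 18, 18.5 and 12.2 TPM and 11.3, 9.45 and 10.9 TPM, and its log2 difference went from -0.56 to -0.74. The others were LOC101163895, lower under long days (-1.48 without the library), LOC101170809, higher (0.65), and LOC101162715, higher at 70.8, 59.5 and 93.6 TPM against 149.8, 146 and 191 TPM.

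Antiviral genes showed the reverse dependence. With all libraries, 10 of the 13 tested members of the interferon and antiviral list had a negative log2 difference, with a median log2 difference of -0.42, and none was called. Without short-day replicate 3, 6 were lower and 7 higher, with a median of 0.02. The antiviral gene rsad2 stood at 6.05, 4.97 and 287 TPM under short days and 5.89, 3.06 and 6.18 TPM under long days, and its log2 difference went from -1.97 to -0.15. That of ifi35 went from -1.31 to -0.32. Of the 35 called genes none belongs to this list.

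**Figure D4:**
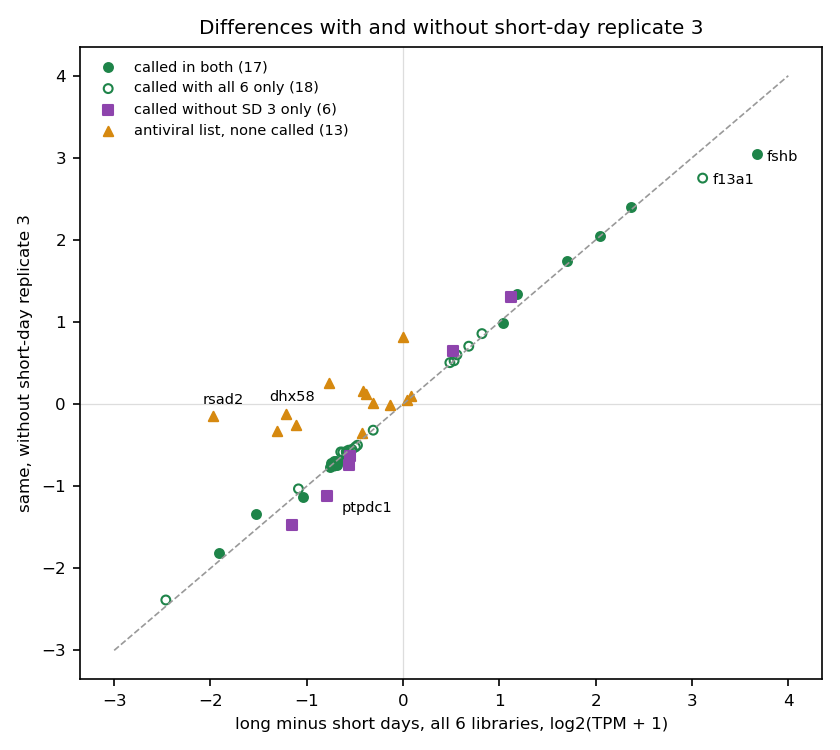
Log2 differences (long minus short days, log2(TPM + 1)) with all 6 wild-type libraries (horizontal) and without short-day replicate 3 (vertical), with the line of equal values dashed. The 35 called genes lie near the line, fshb and f13a1 below it, while antiviral genes such as rsad2 move from -1.97 to -0.15.

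No tested gene of the photoperiod pathway of birds and mammals was called. The list held 28 genes, of which 12 matched a symbol and 11 were tested. The thyrotropin β gene of that pathway was not analysed, since no symbol matched. Of 11 tested photoperiod and thyroid hormone genes 5 were higher and 6 lower, with a median of -0.01 that turned to 0.04 with median-ratio scaling and to 0.03 without short-day replicate 3. The thyroid hormone-activating deiodinase dio2 stood at 6.66, 6.73 and 2.89 TPM under short days and 7.46, 10.4 and 7.34 TPM under long days. Its groups did not overlap, and the log2 difference went from 0.60 to 0.28 without replicate 3 (adjusted p = 0.596 with all libraries). The inactivating deiodinase dio3 was lower without overlap, at 15.2, 13.4 and 13.4 TPM and 11.2, 10.7 and 8.8 TPM (log2 difference -0.42, or -0.45 without replicate 3, adjusted p = 0.289). The opsin gene opn3 stood at 5.3, 4.65 and 4.26 TPM and 6.66, 6 and 6.15 TPM (adjusted p = 0.419). Both thyroid hormone receptor genes, thra and thrb, overlapped.

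Clock genes were read at a single hour, 12. Of 10 tested members 4 were higher and 6 lower, none was called, and the median of -0.03 turned to 0.02 with median-ratio scaling. The period gene per2, which light induces in fish, stood at 32.2, 32.4 and 32.3 TPM under short days and 19.4, 26 and 25.4 TPM under long days (log2 difference -0.45, or -0.45 without short-day replicate 3, adjusted p = 0.213). Its relative per1 differed the other way, at 24.6, 28.6 and 30.5 TPM and 31.7, 35 and 36.5 TPM (log2 difference 0.30, adjusted p = 0.289). Groups did not overlap for either gene, whereas clock, rora and rorb overlapped. The hours from lights on to hour 12 are not given, so a shift of the clock and a change of level cannot be told apart.

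Cell division genes were higher on balance, at small sizes. Of 28 tested genes of mitosis 23 were higher under long days, 9 of them without overlap against 4.95% of all tested genes, with a median of 0.18, or 0.23 without short-day replicate 3. The mitotic kinase gene cdk1 stood at 14.7, 13.9 and 15 TPM and 22.7, 21.3 and 16.4 TPM (log2 difference 0.43, adjusted p = 0.146), and none of the list was called. Other members without overlap were near the filter of 1 TPM, such as kif23 at means of 0.55 and 1.40 TPM and ccnb1 at 1.63 and 2.76 TPM. In kif23 all short-day libraries of both genotypes lay under 1 TPM, so it passed the filter only through long-day libraries, where it is high. The cyclin gene ccnb2, also counted as higher, likewise needed long-day libraries to pass. Neither gene adds support to these counts. The summed level of all 28 was 91.6 to 97.1 TPM under short days and 109 to 127 TPM under long days. Of 40 genes of DNA replication and ribonucleotide removal 29 were higher, with a median of 0.13, and rnaseh2b was the member called. The replicative helicase gene mcm7 stood at 15.1, 12.3 and 14.2 TPM and 19.1, 20.3 and 22.5 TPM (adjusted p = 0.0848). Genes of neurogenesis were lower in 10 of 15, with a median of -0.04 that turned to 0.02 with median-ratio scaling. The neuronal differentiation factor neurod1 stood at 69, 68.7 and 68 TPM and 48.3, 50.3 and 42.6 TPM (adjusted p = 0.0513), lower without overlap and not called.

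Immediate early genes, which include markers of recent neuronal activity, had lower values under long days. They too were read at hour 12 alone, at an unknown time from lights on. All 17 tested immediate early genes were lower under long days, with and without short-day replicate 3, with medians of -0.29 and -0.24 beside -0.05 and -0.04 over all tested genes, and none was called. Their summed level was 562 to 631 TPM under short days and 460.2 to 511 TPM under long days. The activity-dependent factor npas4 stood at 37, 45.9 and 51.6 TPM and 22.5, 29 and 25.6 TPM (log2 difference -0.77, adjusted p = 0.292). Neuronal markers were higher in 6 and lower in 7 of 13, at a summed level of 4474 to 5020.0 TPM under short days and 4712 to 5105 TPM under long days, and myelin markers were lower in 9 of 12 with a median of -0.15. The precursor cell receptor gene pdgfra stood at 18.8, 19.2 and 20.4 TPM and 9.26, 14.7 and 17.4 TPM (adjusted p = 0.315).

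Stress axis and nonapeptide genes were lower in 14 of 17, with a median of -0.08, or -0.09 without short-day replicate 3, and none was called. The thyrotropin-releasing hormone gene trh stood at 87.9, 79 and 105 TPM and 79.1, 70.3 and 67.5 TPM, just overlapping (adjusted p = 0.231), and the opioid precursor gene pdyn at 64.6, 58.2 and 86.9 TPM and 52.4, 54.9 and 42.2 TPM (adjusted p = 0.362). Lower long-day values were found for 16 of 20 heat shock and ER stress genes and for 24 of 31 proteasome genes, with medians of -0.13 and -0.07 and no call. Over all tested genes 61.2% were lower, with a median of -0.05 that went to 0.00138 with median-ratio scaling. The medians of the stress axis and proteasome lists lay close to that -0.05. Cytosolic ribosomal protein genes were higher in 66 of 71, with a median of 0.13, or 0.09 without replicate 3. Their summed level was highest in long-day replicate 13, at 137200.0 TPM against 104100.0 to 115400.0 TPM in the other 5 libraries. That library had the lowest median-ratio size factor of the 6, 0.941 against 0.985 to 1.04.

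Some differences were larger than those of called genes and were still not called. Of genes with a symbol, no overlap and at least 5 TPM in the higher group, the largest higher value was that of calml4, a calmodulin-like gene, at 2.29, 1.5 and 1.97 TPM under short days and 8.15, 4.57 and 6.99 TPM under long days (log2 difference 1.35, adjusted p = 0.095). The transcription factor gene klf11 stood at 9.46, 13.2 and 12.4 TPM and 23.3, 40.9 and 28.9 TPM (1.31, adjusted p = 0.0838). Neuropeptide B, encoded by npb (gene 105354556), stood at 248, 176 and 178 TPM and 330.0, 351 and 350.1 TPM (0.79, adjusted p = 0.29). The others on the higher side were klhl24, mbd4, klf9, exosc1 and frat2, with log2 differences of 0.77 to 1.00.

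On the lower side the largest were 2 globin genes with low TPM, gb (gene 101154779) at 16.9, 16.1 and 28.5 TPM and 0, 5.14 and 2.66 TPM and gb (gene 101174505) at 7.22, 21 and 12.8 TPM and 1.85, 0 and 4.7 TPM. Their log2 differences were -2.88 and -2.42 with SE of 1.18 and 1.11. In the knockout the first stood at 0.44, 0 and 0.92 TPM under short days and 38.3, 41.7 and 0 TPM under long days. There the second stood at 0, 0 and 0 TPM and at 24.7, 36.9 and 0 TPM. How reads were divided among globin genes was not tested. The digestive enzyme gene tryp stood at 49.7, 1.16 and 2.48 TPM and 1.09, 0.81 and 0.74 TPM, so that its short-day mean came mostly from replicate 1. The lipolysis inhibitor gene g0s2 stood at 16.8, 12.9 and 14.4 TPM and 4.96, 3.56 and 6.66 TPM (-1.40, adjusted p = 0.109). The others were gadl1, gatm, cpa6 and slc25a48, with log2 differences of -1.49 to -1.39.

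The same move in the knockout gave values for the same 35 genes, in libraries that enter the wild-type calls through the shared estimate of spread. There 321 genes were called, or 1.76% of those tested, and 20 of the 35 were among them, 10 that rose and 10 that fell. These 20 are 57.1% of the wild-type calls and 6.23% of the knockout calls. Without knockout short-day replicate 3 the knockout had 122 calls with 12 of the 35 among them, and without replicate 4 it had 111 with 9 of the 35. Of the 35 genes 32 had the same sign in the knockout, and 31 did without knockout short-day replicate 3 and also without replicate 4. The absolute log2 difference was smaller in the knockout for 29 of the 35, 7 of 12 that rose and 22 of 23 that fell. The 35 were chosen for passing the test in wild type, which favours larger wild-type values, so nothing is read from that count.

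Of the reproductive genes, lhb and cga rose in the knockout by 2.43 and 2.49 on the log2 scale, against 2.36 and 2.04 in wild type. For fshb, the knockout stood at 206, 163 and 183 TPM under short days and 602, 635 and 625 TPM under long days, a log2 difference of 1.76 (SE 0.38, adjusted p = 0.0464) against 3.67 in wild type. The difference between these was 1.91 (SE 0.54, adjusted p = 0.413) with short-day wild-type replicate 3 in the fit. With cyp19b the knockout value was 1.32 and with fech -0.81, against 1.70 and -0.76 in wild type. The knockout difference of f13a1 was larger, 5.78 against 3.11, and the test of the difference gave -2.67 (SE 0.62, adjusted p = 0.298).

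Differences near 0 in the knockout were those of lep-b (-0.05 against -1.09 in wild type), gcat (-0.03 against -0.59) and rundc1 (-0.06 against -0.53). For gpat3 the knockout stood at 35.3, 39.9 and 39.4 TPM under short days and 42.3, 41.6 and 42 TPM under long days, a log2 difference of 0.13 against -0.50. LOC101165212, rnaseh2b and gpat3 were the 3 genes with the opposite sign. With all 12 libraries none of the 35 passed the test of the difference between genotypes by limma. The smallest adjusted p among them was that of gpat3, 0.124, and 13 had an unadjusted p under 0.05. Over all tested genes that test called 1 gene, LOC110015663, or 0.00549%, and 1444 had an unadjusted p under 0.05. It called 2 genes without knockout short-day replicate 3 and 5 without replicate 4, none of them among the 35.

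Without short-day replicate 3, 4 genes passed the test of the difference between genotypes, or 0.0220%. Of these fshb was called in wild type in both fits. Its log2 difference was then 3.04 in wild type and 1.76 in the knockout, and the difference between them was 1.29 (SE 0.137, adjusted p = 0.0177, with 0.232 to 0.609 over the fits that kept the library). The wild-type fold was thus the larger, with long-day libraries at 983, 897 and 1083 TPM in wild type and 602, 635 and 625 TPM in the knockout. In ptpdc1 the genotypes differed in sign. Its knockout libraries stood at 28.6, 28.7 and 28.4 TPM under short days and at 45.1, 49.5 and 45.5 TPM under long days, all higher under long days, while all wild-type long-day libraries were lower than the wild-type short-day ones. The log2 difference was -1.11 in wild type and 0.69 in the knockout without that library, and the difference between them -1.80 (SE 0.122, adjusted p = 0.000393, with 0.0929 to 0.354 over the fits that kept it). The others were LOC110015663 and the ribosome maturation gene sbds, named after its values were seen, at a wild-type log2 difference of 0.03 and a knockout one of -0.67.

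**Figure D5:**
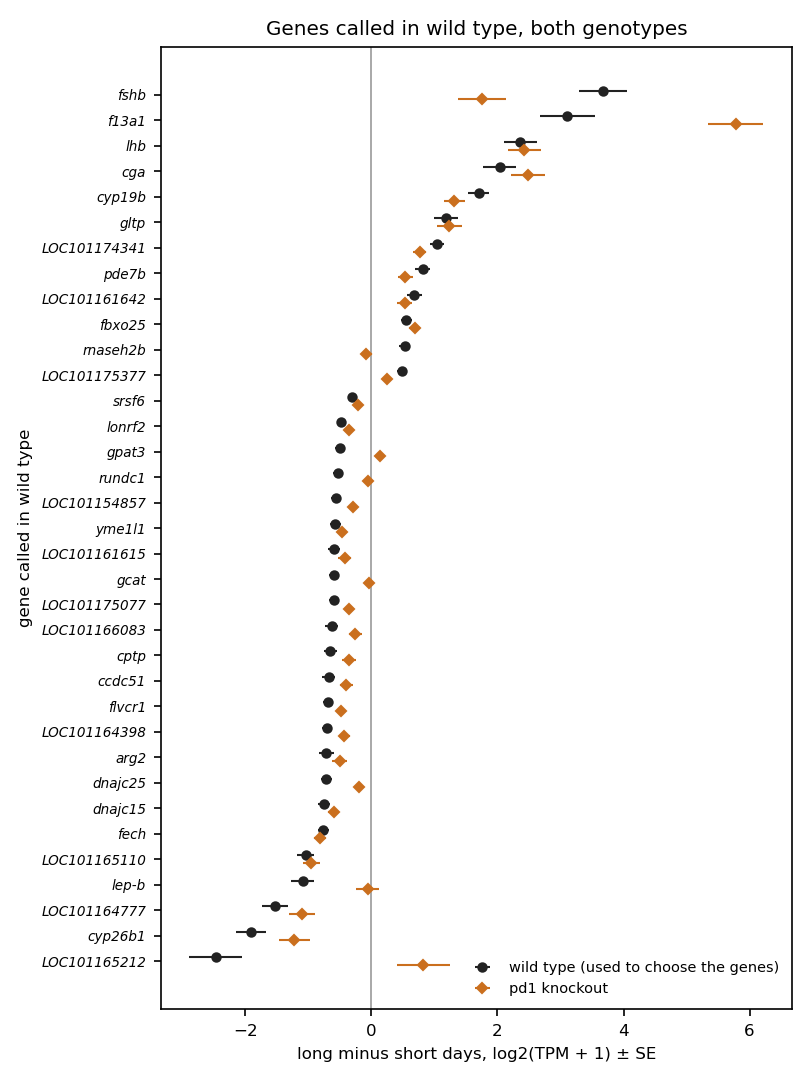
Log2 differences (long minus short days, log2(TPM + 1)) with SE for the 35 genes called in wild type, in wild type (black circles) and in the pd1 knockout (orange diamonds), ordered by the wild-type value. The genes were chosen by the wild-type value, and f13a1 lies at 5.78 in the knockout against 3.11 in wild type.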

How the data were processed

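Poly-A RNA gave strand-specific paired-end libraries, per the labels' protocols. The authors deposited TPM for each gene in each library. STAR 2.7.9a and RSEM 1.3.1 are named in the submitters' processing notes, without their part. The genome build is not given in the sources used here, and no coordinates or sequences are printed. Depth is unknown from TPM, so precision rests on 3 libraries per group. All 26663 gene IDs matched the RefSeq gene table of ASM223467v1, which gave symbols.

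Genes with at least 1 TPM in at least 3 of the 12 libraries were tested as log2(TPM + 1), without scaling between libraries, in 1 limma fit (version 3.58.1, R 4.3.3) of 4 group means with a mean-variance trend. The 3 contrasts were long minus short days in wild type and in the knockout and the difference between these. Tests were two-sided, adjusted by Benjamini-Hochberg over all tested genes. The fit was tested on simulated data with 100 of 18218 genes changed. At a log2 change of 1 it called 91 of the 100 in the right direction and 17 unchanged genes. At a log2 change of 2 it called 96 and again 17 unchanged genes, and with nothing changed it called 0. In both simulations with changed genes, unchanged genes made up a larger share of the calls than the adjusted p threshold of 0.05. The wild-type calls may therefore hold a larger share of false calls than that threshold states. The pseudocount makes differences of low genes smaller than their ratios. Alternatives changed the pseudocount, filter, scaling, trend, array weights, groups fitted, replicate block and libraries, and leaving out knockout short-day replicate 3 or 4 was added after seeing the data.

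Genes named were all called genes, those called only without short-day replicate 3, the 8 largest uncalled differences each way without overlap among genes with a symbol and at least 5 TPM, any member of the reproductive, photoperiod, clock, retinoic acid, haem and feeding lists, and up to 4 members by smallest p of other lists. The comparison and the lists were chosen with earlier results of these data known. List counts and medians are descriptions with no test.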

Additional observations from a re-analysis of the deposited data

Results flagged for a closer look

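LOC110015663 was the 1 gene whose long-minus-short-day difference passed the test of the difference between genotypes with all 12 libraries, and it was not called in wild type. Wild-type libraries stood at 0.16, 0.49 and 0.52 TPM under short days and at 0.29, 0.71 and 0.34 TPM under long days, so those groups overlapped at very low levels. Knockout libraries stood at 0.35, 0.78 and 0.39 TPM under short days and at 11.8, 22.2 and 10.9 TPM under long days. The wild-type minus knockout difference was -3.29 on the log2 scale (adjusted p = 0.033 by limma, with 0.0144 to 0.173 over all alternatives). It passed the filter of at least 1 TPM in 3 libraries only through the knockout long-day group, where it is high. The call was lost with a pseudocount of 0.1, with a filter of at least 5 TPM and without short-day wild-type replicate 1 or 2 or any 1 long-day wild-type library.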

How the results depend on the processing

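All 35 wild-type calls kept their direction under every alternative that tested them. Of 695 uncalled genes of the lists or named, 256 changed sign under at least 1 alternative and 71 without short-day replicate 3, and of 38 list medians 18 and 4 did. The count of calls was 292 (70 that rose and 222 that fell) with limma array weights, which gave long-day replicate 15 a weight of 2.77 against 0.524 and 0.577 for long-day replicates 13 and 14. It was 1 (1 that rose and 0 that fell) when the wild-type groups were fitted alone, where lhb was the gene called; 2117 genes had an unadjusted p under 0.05 in the fit to all groups. With median-ratio scaling 12 fell, and with no trend in the prior variance 25 genes were called and 186 in the knockout. Leaving out 1 wild-type library gave 10 to 33 calls, 4 to 8 that rose and 6 to 27 that fell. The count was 10 without long-day replicate 13 or 15, 11, 13 and 23 without short-day replicates 2, 1 and 3, and 33 when long-day replicate 14 was dropped. The same fits gave 197 to 320 calls in the knockout and 0 to 4 for the difference between genotypes, with 4, fshb and ptpdc1 among them, without short-day replicate 3. That difference called 0 genes with a pseudocount of 0.1, 6 with a filter of TPM above 0, 0 with a filter of at least 5 TPM, 5 with no trend and 9 with array weights. Leaving out knockout short-day replicates 3 and 4 in turn, chosen after seeing the data, gave 30 and 37 wild-type calls, with 26 and 29 of the 35 kept, 122 and 111 in the knockout and 2 and 5 for the difference between genotypes. The 2 wild-type groups share no replicate number, so no paired fit between them was possible. A replicate block over the numbers shared by wild type and knockout gave 35 calls, with the same 35 genes, and a block correlation of 0.0436. Deviations of same-numbered libraries correlated at 0.0817, 0.0881, -0.0478 and -0.00492. Such values cannot show whether these libraries share more than a number. Precision is limited by 3 libraries per group, at a median SE of 0.135 on the log2 scale, and read depth is unknown.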
